A study of Homo sapiens with 15 samples.

Results

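The comparison described here sets 3 libraries of cells expressing wild-type ETV6 against 3 libraries of cells expressing ETV6 R399C. These 6 libraries, of 15 in the series, were taken by their titles, not by any measured value. All come from Reh, an established human B-lymphoblastic leukaemia cell line. The cells had been transduced with a doxycycline-inducible (DoxON) vector for V5-tagged wild-type ETV6 (group ETV6_WT) or V5-tagged ETV6 R399C (group ETV6_R399C), and were harvested after 48 h in 500 ng/ml doxycycline. A further 3 libraries, from cells with the same kind of vector for tagBFP-V5 (a blue fluorescent protein, group tagBFP) under the same induction, give the level without an induced ETV6. The last 6 come from another experiment in the same line, in which inducible dCas9-KRAB, a transcriptional repressor fused to inactive Cas9, was directed by a guide to the ERG promoter (sgERG, 3 libraries) or carried a non-targeting guide (sgCtrl, 3 libraries). Those cells were sorted first and then kept in 500 ng/ml doxycycline over 72 h. Every group was thus exposed to doxycycline, the transduced cells are described as populations rather than clones, and the transgene stood under the vector's own inducible promoter, not that of ETV6.

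ETV6 belongs to the ETS transcription factors and mostly represses its targets. Its ETS domain binds DNA at a GGAA core, and an amino-terminal domain lets the protein form polymers and recruit corepressors. R399C replaces an arginine of the ETS domain. Germline substitutions in that domain are a known cause of inherited thrombocytopenia with a predisposition to B-cell leukaemia. The fusion ETV6::RUNX1 is present in Reh while the other ETV6 allele is gone, so an ETV6 form can be put back where the normal protein is missing. The comparison asks which transcripts depend on an intact DNA-binding domain.

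The codon that R399C changes is shown in the reference ETV6 coding sequence because the substitution is the single designed difference between the groups. On hg38 it lies on chromosome 12 at 11885968 to 11885970, forward strand, in exon 7 of 8 of ETV6-202, a transcript of 452 codons. Codons 385 to 412 of the GENCODE 29 transcript read, 5′ to 3′, with that codon in capitals:

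ETV6 codons 385 to 412: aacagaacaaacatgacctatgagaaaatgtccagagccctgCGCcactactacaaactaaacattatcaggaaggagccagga

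The reads themselves are not analysed here, so the substituted base was not checked in the libraries.

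Library totals ranged from 23324816 to 28299476 reads for ETV6_WT and from 22040338 to 27423208 for ETV6_R399C, and the tagBFP libraries held 25897834 to 34046795. Mitochondrially encoded genes took 0.96% to 1.16% of named reads with ETV6_WT and 1.13% to 1.22% with ETV6_R399C. Whether the replicates came from different cultures is not stated in the labels, so each p-value reflects no more than the spread among these libraries, which may be technical. Of 10 markers of the B-lymphoblastic line, 9 were at 1 CPM (reads of a gene per 1000000 reads of named genes, without scaling) or more, and VPREB1 was at 0 reads. For single genes outside this paragraph, CPM is taken per 1000000 reads of the genes tested, after scaling. None of 8 T-cell markers in the table reached 1 CPM. The sum over 10 myeloid markers was 73.7 to 76.9 CPM in the ETV6_WT libraries, 88.8 to 92.0 in those of ETV6_R399C and 51.5 to 52.9 in those of tagBFP. Of these, CD33, CSF1R, LYZ and MPO reached 1 CPM, and ELANE, S100A8 and S100A9 were at 0 reads.

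ETV6 stood at 465, 498 and 495 CPM in the ETV6_WT libraries and at 356, 384 and 379.6 in the ETV6_R399C libraries, against 6.08, 6.01 and 5.48 with tagBFP. Both forms were therefore strongly induced, and every ETV6_WT library lay above every ETV6_R399C library. The difference was 0.38 ± 0.04 SE on the log2 scale (adjusted p = 2.5e-05). The adjusted p-values throughout come from the quasi-likelihood test of edgeR, with adjustment after Benjamini-Hochberg over all genes tested, and a gene is said to be higher, lower or called where it is below 0.05. With an offset for the average transcript length the ETV6 difference was 0.89, so its size depends on how reads were shared between transcripts. Reads of the fusion ETV6::RUNX1 would be counted as ETV6 in every group, so the tagBFP level need not be that of normal ETV6. Reads were assigned to annotated transcripts, while the transgene stood under the vector's own promoter. The start positions given for ETV6 are thus those of the annotation and do not show where its transcription began. Transcripts annotated to start between 11649854 and 11650011 were assigned 431 ± 18.1 RPM (reads per 1000000 reads of the library) with ETV6_WT and 343 ± 11.8 with ETV6_R399C. ETV6-201, a short transcript annotated to start at 11885937, was assigned 13.2 ± 0.52 and 6.44 ± 0.766 RPM (SD, n = 3 each, two-sided exact permutation p = 0.1 for each, the lowest p possible with 3 libraries in each group). The part of this difference in dose in the results below was not tested.

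Of 14242 genes tested, 3044 (21.4%) were called between the forms, 1721 (12.1%) higher and 1323 (9.29%) lower with ETV6_WT. Most differences were small, with a median size of 0.22 on the log2 scale among called genes. At 2-fold or more the balance was the other way, with 68 genes (0.477%) higher and 135 (0.948%) lower, 203 in all (1.43%). From a log2 size of 1.5 the counts were 26 higher and 61 lower, and from 2 they were 9 and 24. The libraries of both groups did not overlap in 5462 genes (38.4%), with ETV6_WT above in 3127 (22%) and below in 2335 (16.4%). The balance of the small differences rests on scaling and filtering: 56.5% of the calls were higher with ETV6_WT, but 46.3% with upper-quartile scaling, 47.3% without a filter on low counts and 46.8% when only these 6 libraries were fitted. With the transcript length offset 1236 genes were called, 639 higher and 597 lower.

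**Figure D1:**
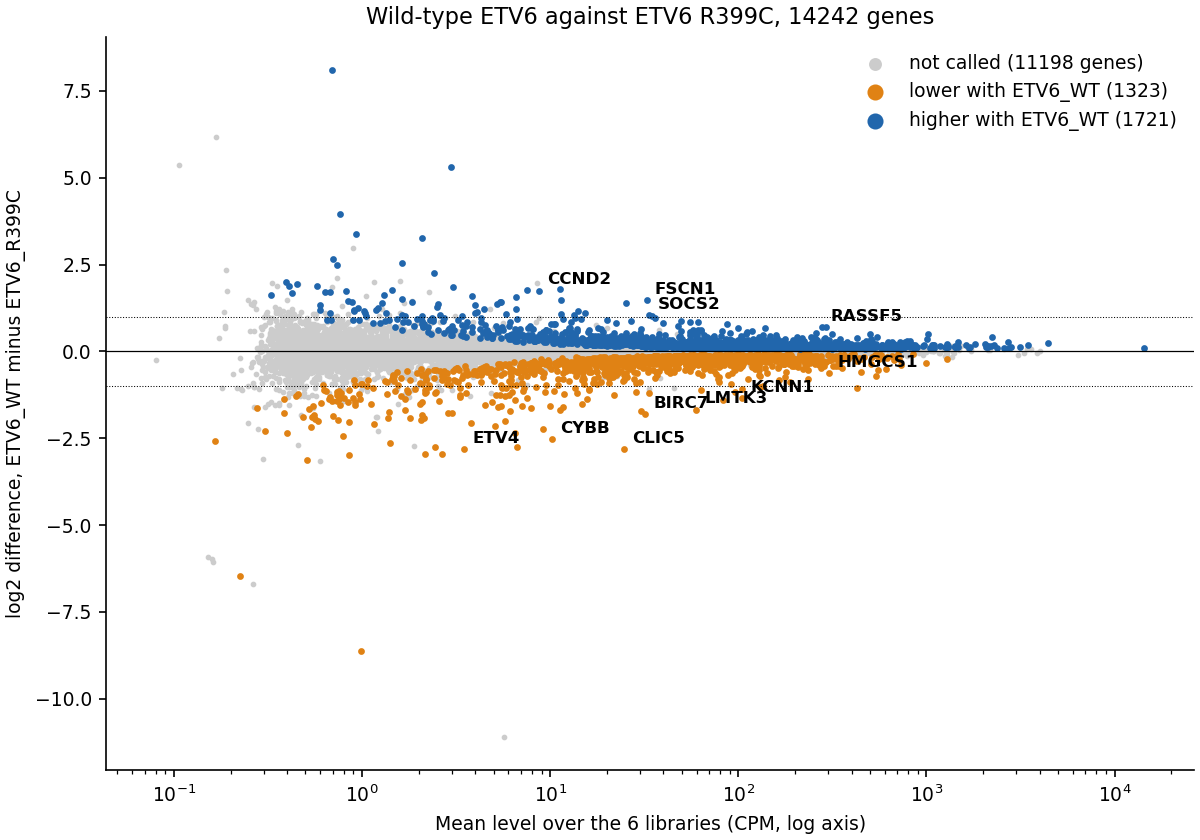
Each point is 1 of 14242 genes, with its mean level over the 6 libraries in CPM (log axis) and its fitted log2 difference, ETV6_WT minus ETV6_R399C. Orange points are the 1323 genes lower and blue points the 1721 genes higher with ETV6_WT, grey points were not called, and the dotted lines mark 2-fold. Points far below zero are more numerous than points far above it at the levels of the labelled genes.

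Each gene that differed at least 2-fold was set beside the tagBFP level. The tests of each form against tagBFP share the tagBFP libraries, and share the ETV6_WT or ETV6_R399C libraries with the direct comparison, so they place a gene and give no separate support. Of all genes tested, 17.6% were higher and 18.9% lower with ETV6_WT than with tagBFP (36.5% called), and 18.8% were higher and 22.1% lower with ETV6_R399C (40.9% called). Of the 135 genes lower with ETV6_WT, 61 were lower with ETV6_WT than with tagBFP and not called with ETV6_R399C, with medians of -1.48 and 0.04 on the log2 scale. In 19 both forms were below tagBFP, the wild-type form further (medians -2.17 and -0.54). In another 19 the wild-type form was below and R399C above tagBFP (medians -0.80 and 0.52). In 21 R399C was above tagBFP and the wild-type form was not called (medians -0.28 and 1.2), in 12 neither was called and in 3 both were above. A missing call does not show that a level equals that with tagBFP.

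The largest group, lower than tagBFP with the wild-type form and not called with R399C, was led by CLIC5, which encodes a chloride intracellular channel protein and marks leukaemia with the ETV6::RUNX1 fusion. CLIC5 (chromosome 6, reverse strand) stood at 6.49, 5.55 and 6.35 CPM with ETV6_WT, 43.2, 43.6 and 42.3 with ETV6_R399C and 46.2, 41.1 and 40.8 with tagBFP. The ETV6_WT libraries lay far below the other 6, which overlapped, and the fall against R399C was 7.04-fold (log2 -2.82 ± 0.07 SE, edgeR adjusted p = 1.9e-09). In bulk libraries fewer cells with a transcript and less of it per cell cannot be told apart. The reads came mainly from CLIC5-202 and CLIC5-208, which start at 46015825 to 46015828 and held 4.85 ± 0.512 RPM with ETV6_WT and 35.5 ± 1.16 with ETV6_R399C. A second group of 4 transcripts starting at 45937464 to 45937597 held 0.695 ± 0.0751 and 4.54 ± 0.251 RPM (SD, n = 3, exact permutation p = 0.1 for each). Both start regions were thus lower together.

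ETV4 and ETV5 encode PEA3-type ETS activators that are induced by ERK signalling. ETV4 stood at 0.893, 1.08 and 0.581 CPM with ETV6_WT, 5.91, 6.42 and 5.97 with ETV6_R399C and 5.73, 5.55 and 5.82 with tagBFP, without overlap of ETV6_WT with the other groups (log2 -2.82 ± 0.17 SE, edgeR adjusted p = 1.1e-06). Its exons overlap DHX8 on the other strand, so its reads are uncertain. ETV5 stood at 4.61, 5.40 and 6.12 CPM with wild-type ETV6, 17.1, 16.9 and 17.9 with R399C and 17.3, 14 and 15.6 with tagBFP (log2 -1.68 ± 0.11 SE). It shares exon sequence with DGKG, and its call was lost with the transcript length offset (log2 -1.06, edgeR adjusted p = 0.056).

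CYBB encodes the catalytic subunit of the phagocyte NADPH oxidase. It stood at 3.15, 3.16 and 2.73 CPM with ETV6_WT, 16.5, 17.7 and 17.98 with ETV6_R399C and 17.3, 16.5 and 16.8 with tagBFP, so that the 3 ETV6_WT libraries were low and the other 6 overlapped (log2 -2.53 ± 0.08 SE, edgeR adjusted p = 4.4e-09). SIGLEC15, a sialic acid-binding lectin gene of myeloid cells and osteoclasts, stood at 2.35, 1.93 and 2.15 CPM with wild-type ETV6, 11.0, 10.3 and 11.2 with R399C and 13.4, 13.4 and 10.8 with tagBFP (log2 -2.34 ± 0.12 SE). CD33, another lectin gene of the family, was low throughout at 1.13, 1.12 and 0.983 CPM with wild-type ETV6, 2.67, 2.56 and 2.08 with R399C and 1.84, 2.04 and 2.62 with tagBFP, and again the ETV6_WT libraries lay below the rest (log2 -1.17 ± 0.20 SE, edgeR adjusted p = 0.002). The myeloid marker sums above moved in the same direction between the forms, and their part in these differences was not tested. CSF1R, the receptor gene of macrophage growth, went the other way, with 16.9 ± 0.985 CPM with ETV6_WT and 10.8 ± 0.0624 with ETV6_R399C (SD, n = 3).

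KCNN1, a small-conductance calcium-activated potassium channel gene, was the most abundant of this class of genes at least 2-fold apart among those named here. It stood at 58.1, 58.7 and 59.2 CPM with ETV6_WT, 147, 146 and 156 with ETV6_R399C and 153, 149 and 142 with tagBFP, with the last 2 groups overlapping (log2 -1.35 ± 0.04 SE, edgeR adjusted p = 1.9e-09). LRRC4, a synaptic adhesion gene, stood at 3.34, 2.85 and 2.32 CPM with wild-type ETV6, 9.35, 9.12 and 9.60 with R399C and 9.88, 9.99 and 9.70 with tagBFP (log2 -1.72 ± 0.11 SE). In both KCNN1 and LRRC4, every ETV6_WT library was below every other library.

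BIRC7 was among the genes at least 2-fold apart that were lower than tagBFP with both forms. It encodes livin, an inhibitor of apoptosis, and stood at 13.3, 14.2 and 14.7 CPM with ETV6_WT, 50.5, 50.03 and 48.4 with ETV6_R399C and 58.3, 62.6 and 61.4 with tagBFP. The 3 groups formed 3 separate steps, with a difference of -1.82 ± 0.05 SE (log2) between the forms and of -0.29 between R399C and tagBFP (edgeR adjusted p = 1.9e-09 and 2.1e-04). The transcripts starting at 63235883 carried 98.1% of its R399C reads, at 12.5 ± 0.571 RPM with ETV6_WT and 45.7 ± 1.66 with ETV6_R399C (SD, n = 3, exact permutation p = 0.1). SLC51A, an organic solute transporter gene whose exons overlap PCYT1A on the other strand, stood at 3.01, 3.43 and 3.26 CPM with wild-type ETV6, 14.7, 15.3 and 15.5 with R399C and 16.7, 18.9 and 17.8 with tagBFP. DSC3, a desmosomal cadherin gene, and RAP1GAP, which encodes a protein that switches off the GTPase RAP1, had the same order of group means. They differed between the forms by -2.07 ± 0.12 SE and -1.61 ± 0.12 SE on the log2 scale.

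In a further class the forms lay on opposite sides of tagBFP. LMTK3, a membrane-bound kinase gene, stood at 26.8, 28.8 and 30.0 CPM with ETV6_WT, 88.2, 93.4 and 92.0 with ETV6_R399C and 69.6, 68.6 and 66.0 with tagBFP. None of the 3 groups overlapped (log2 -1.67 ± 0.04 SE between the forms, edgeR adjusted p = 1.9e-09). LMTK3-201, which starts at 48513189, carried the difference with 23.0 ± 1.32 against 84.7 ± 1.23 RPM, while LMTK3-202 held 3.10 ± 1.71 and 0.806 ± 1.40 (SD, n = 3, exact permutation p = 0.1 and 0.3). ST6GALNAC3, a sialyltransferase gene, stood at 2.59, 2.12 and 2.19 CPM with wild-type ETV6, 10.7, 9.79 and 7.18 with R399C and 5.54, 5.59 and 5.02 with tagBFP. DLL4, which encodes a Notch ligand, stood at 4.04, 3.82 and 3.75 CPM with wild-type ETV6, 12.1, 11.6 and 11.97 with R399C and 4.34, 5.91 and 4.98 with tagBFP, high in the R399C libraries and lower with ETV6_WT than with tagBFP by a smaller step (log2 -0.39, edgeR adjusted p = 0.022). ITGB2, the beta subunit gene of the leukocyte integrins, stood at 11.0, 9.14 and 10.9 CPM with wild-type ETV6, 22.4, 21.4 and 21.9 with R399C and 17.9, 18.4 and 16.4 with tagBFP, and AK7, an adenylate kinase gene, at 14.2, 14.4 and 13.7 CPM with wild-type ETV6, 44.9, 50.2 and 44.9 with R399C and 41.1, 40.1 and 43.6 with tagBFP.

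CREB5 and JUN, both bZIP transcription factor genes, were higher with R399C than with tagBFP while the wild-type form was not called. CREB5 stood at 1.41, 2.31 and 1.83 CPM with ETV6_WT, 9.39, 9.60 and 6.05 with ETV6_R399C and 1.33, 1.61 and 1.73 with tagBFP. The R399C libraries were above all others but spread, with replicate 3 the lowest, and the difference between the forms was -2.16 ± 0.22 SE on the log2 scale (edgeR adjusted p = 4.6e-05). JUN stood at 8.79, 9.14 and 8.63 CPM with wild-type ETV6, 22.3, 17.4 and 15.5 with R399C and 10.6, 9.09 and 9.03 with tagBFP (log2 -1.06 ± 0.12 SE). Its R399C libraries were also above all others.

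**Figure D2:**
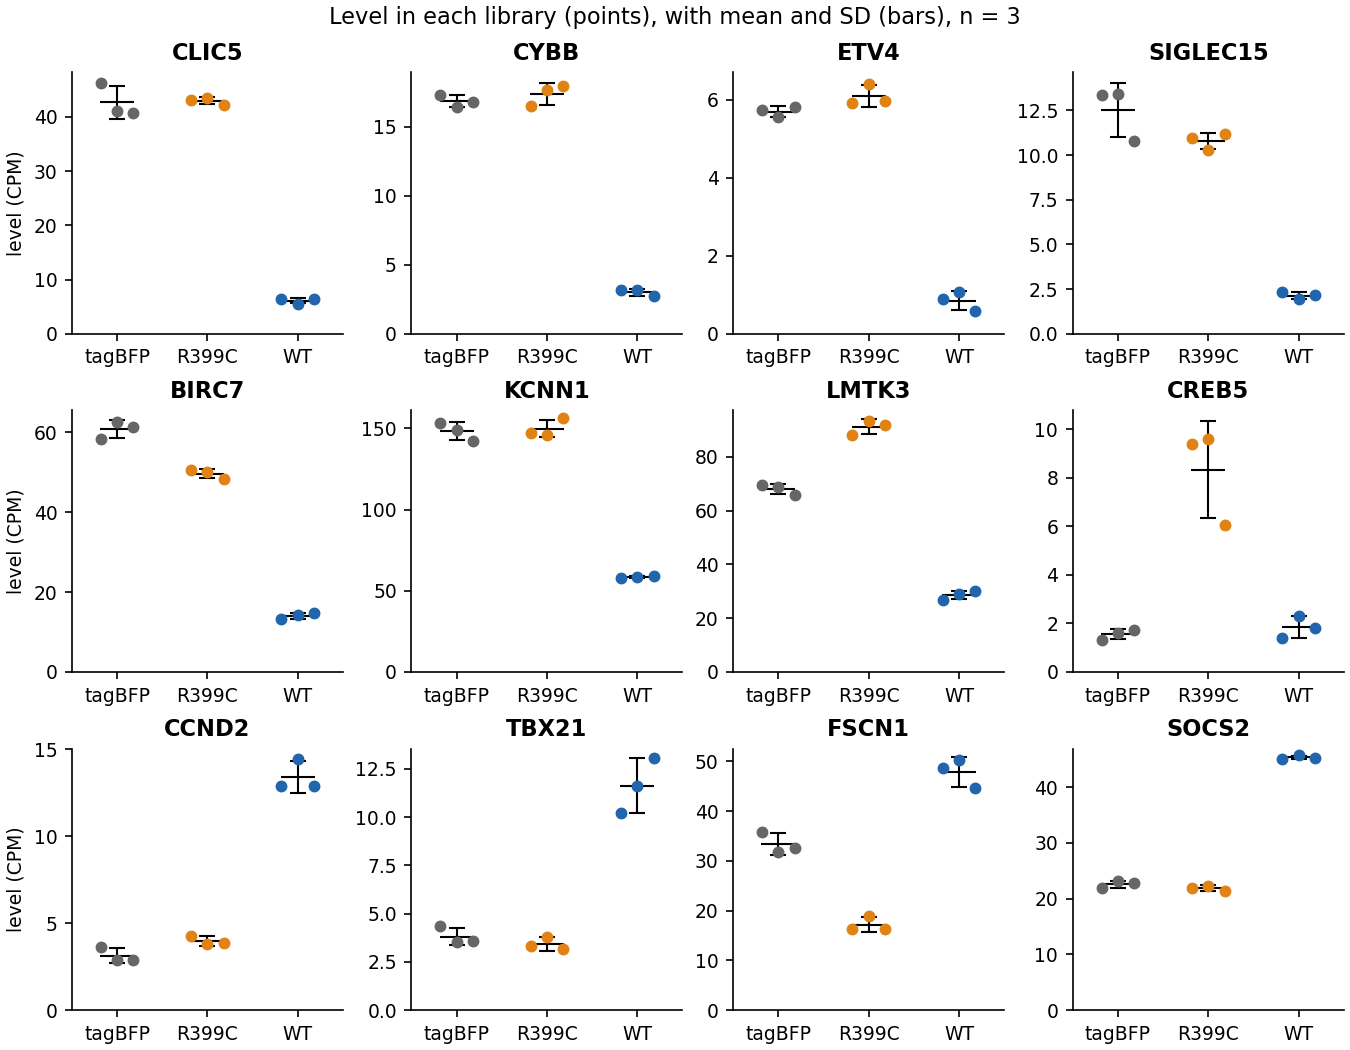
Level of 12 named genes in CPM (each axis starts at 0) in each of the 9 libraries (points), with the mean and SD of each group (bars, n = 3). CLIC5, CYBB, ETV4, SIGLEC15 and KCNN1 are low with ETV6_WT alone, BIRC7 and LMTK3 show 3 separate levels, CREB5 is high with R399C alone, and the lowest row holds genes highest with ETV6_WT.

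Of the 68 genes at least 2-fold higher with ETV6_WT, 29 were above tagBFP with ETV6_WT and not called with ETV6_R399C (medians 1.63 and 0.22). In 16 both forms were above tagBFP, the wild-type form further (medians 2.49 and 1.2), in 6 the wild-type form was above and R399C below, and in 11 R399C was below and the wild-type form not called. In 5 neither was called and in 1 both were below.

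TBX21 encodes T-bet, a T-box transcription factor. It stood at 10.2, 11.6 and 13.1 CPM with ETV6_WT, 3.32, 3.81 and 3.16 with ETV6_R399C and 4.34, 3.51 and 3.59 with tagBFP, with the wild-type libraries above all others (log2 1.76 ± 0.13 SE, edgeR adjusted p = 3.4e-06). SOCS2, which restrains cytokine signals through JAK kinases, showed the same order at higher levels, 45.1, 45.7 and 45.2 CPM with wild-type ETV6, 21.98, 22.3 and 21.4 with R399C and 21.9, 23.1 and 22.8 with tagBFP, and the spread within each group was small (log2 1.05 ± 0.04 SE, edgeR adjusted p = 2.5e-08). Its reads were divided over 8 start regions, and the mean was higher with ETV6_WT in each of the 8. RASSF5, which encodes a RAP1 effector also called RAPL, was higher by less than 2-fold. It stood at 346, 344 and 352 CPM with wild-type ETV6, 209, 213 and 215 with R399C and 224, 230.5 and 220.3 with tagBFP (log2 0.71 ± 0.03 SE, edgeR adjusted p = 1.4e-08), and RASSF5-201, starting at 206557165, held 289 ± 0.971 RPM with ETV6_WT and 183 ± 1.54 with ETV6_R399C (SD, n = 3, exact permutation p = 0.1).

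CCND2 encodes cyclin D2 and INHBB a subunit of activin and inhibin. CCND2 stood at 12.9, 14.5 and 12.9 CPM with ETV6_WT, 4.29, 3.81 and 3.85 with ETV6_R399C and 3.61, 2.90 and 2.91 with tagBFP (log2 1.75 ± 0.11 SE, edgeR adjusted p = 1.2e-06). INHBB stood at 38.3, 35.3 and 36.7 CPM with wild-type ETV6, 14.02, 12.8 and 14.8 with R399C and 11.0, 11.3 and 8.69 with tagBFP (log2 1.40 ± 0.09 SE). In both genes R399C was called above tagBFP as well, by 0.34 and 0.42 on the log2 scale, and all 3 groups were separate. Larger rises with R399C over tagBFP were seen in FUT7, which encodes a fucosyltransferase that makes selectin ligands. It stood at 6.16, 5.67 and 5.54 CPM with ETV6_WT, 1.62, 1.69 and 2.46 with ETV6_R399C and 0.158, 0.286 and 0.127 with tagBFP, in 3 steps. PDE4B, a cyclic AMP phosphodiesterase gene, stood at 5.55, 6.01 and 5.59 CPM with wild-type ETV6, 2.51, 2.27 and 1.99 with R399C and 0.792, 0.68 and 1.10 with tagBFP. SLC6A19, a neutral amino acid transporter gene, stood at 8.51, 9.29 and 10.01 CPM with wild-type ETV6, 4.25, 3.62 and 3.93 with R399C and 0.443, 0.179 and 0.253 with tagBFP, and CTHRC1, which encodes a secreted collagen repeat protein, at 7.66, 8.67 and 7.69 CPM with wild-type ETV6, 2.67, 2.99 and 3.24 with R399C and 2.502, 2.005 and 1.90 with tagBFP. All 4 were higher with the wild-type form. The log2 difference was 1.59 ± 0.20 SE for FUT7 (edgeR adjusted p = 2.4e-04), 1.34 for PDE4B, 1.23 for SLC6A19 and 1.43 for CTHRC1.

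FSCN1, which encodes the actin-bundling protein fascin, lay above tagBFP with the wild-type form and below it with R399C. It stood at 48.6, 50.4 and 44.7 CPM with ETV6_WT, 16.2, 18.9 and 16.3 with ETV6_R399C and 35.8, 31.7 and 32.6 with tagBFP, with no overlap between any groups (log2 1.49 ± 0.07 SE between the forms, edgeR adjusted p = 1.7e-07). FSCN1-201 carried 95.7% of the R399C reads, at 42.6 ± 2.89 RPM with ETV6_WT, 15.4 ± 1.75 with ETV6_R399C and 30.1 ± 2.31 with tagBFP (SD, n = 3). FCGRT, the neonatal Fc receptor gene, stood at 20.5, 21.7 and 20.4 CPM with wild-type ETV6, 9.27, 11.0 and 9.08 with R399C and 13.5, 14.1 and 11.3 with tagBFP, again on both sides of tagBFP. CAV1, which encodes caveolin, was low with R399C alone, at 4.89, 5.01 and 6.48 CPM with wild-type ETV6, 2.32, 2.12 and 3.20 with R399C and 4.85, 5.08 and 4.30 with tagBFP (log2 1.10 ± 0.17 SE, edgeR adjusted p = 0.0011). Its call was lost with the transcript length offset (log2 1.08, edgeR adjusted p = 0.091).

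Several other large differences are less certain. MAPK8IP2, a JNK scaffold gene, stood at 4.61, 9.14 and 3.75 CPM with ETV6_WT and 0.309, 0 and 0.0865 with ETV6_R399C, where 1 library had 0 reads. The tagBFP libraries spread from 0.338 to 3.80 CPM, so no fold is given. CPZ, a carboxypeptidase gene, had a mean of 17.5 ± 0.83 CPM for the wild-type form and 5.02 ± 1.31 for R399C (SD, n = 3), and shares exon sequence with GPR78. RAPGEF3, the cyclic AMP-activated exchange factor gene for RAP1, and SERHL2 overlap SLC48A1 and RRP7BP on the other strand. SH3BP5 and BAALC lost their calls with the transcript length offset (log2 0.70 and 1.02), and PPP1R12B, a myosin phosphatase subunit gene at 1.22 in the test as reported, came out at -0.46.

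Promoter sequences of GRCh38.p14 from RefSeq, 250 bases before to 50 after the annotated start, are shown for 3 of these genes. Their reads came from starts within 500 bases of it (98.1% to 100% of reads over the ETV6_WT, ETV6_R399C and tagBFP libraries). They let the ETS core be seen where transcription starts. GGAA, or its reverse complement TTCC, is in capitals. The 3 were chosen after their values were seen. CYBB and BIRC7 were lower and TBX21 higher with ETV6_WT.

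CYBB, chrX:37779809-37780108, forward strand: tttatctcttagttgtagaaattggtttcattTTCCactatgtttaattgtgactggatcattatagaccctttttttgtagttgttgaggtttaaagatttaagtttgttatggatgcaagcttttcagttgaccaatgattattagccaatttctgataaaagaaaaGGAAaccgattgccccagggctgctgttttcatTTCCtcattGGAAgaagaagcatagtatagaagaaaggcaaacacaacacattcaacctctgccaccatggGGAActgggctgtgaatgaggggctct

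BIRC7, chr20:63235655-63235954, forward strand: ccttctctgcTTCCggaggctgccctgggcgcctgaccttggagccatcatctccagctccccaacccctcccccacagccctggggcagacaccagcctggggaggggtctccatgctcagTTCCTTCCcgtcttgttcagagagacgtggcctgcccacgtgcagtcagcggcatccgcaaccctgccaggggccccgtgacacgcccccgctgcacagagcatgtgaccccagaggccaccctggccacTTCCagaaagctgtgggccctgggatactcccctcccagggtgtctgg

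TBX21, chr17:47732986-47733285, forward strand: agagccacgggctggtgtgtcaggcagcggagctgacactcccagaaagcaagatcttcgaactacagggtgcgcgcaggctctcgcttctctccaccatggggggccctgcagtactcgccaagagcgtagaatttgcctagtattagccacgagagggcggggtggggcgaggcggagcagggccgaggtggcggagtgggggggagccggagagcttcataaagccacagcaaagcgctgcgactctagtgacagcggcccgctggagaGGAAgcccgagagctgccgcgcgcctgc

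The CYBB window holds 5 matches, the BIRC7 window 4 and the TBX21 window 1. The RefSeq window of CLIC5 is not shown, since none of its reads in these libraries came from starts within 500 bases. A match to GGAA on either strand was in 95.5% of all 27305 promoter windows. It was in 89 of the 93 windows matched for genes at least 2-fold lower with ETV6_WT (95.7%) and in 43 of 46 for genes at least 2-fold higher (93.5%). The longer motif CCGGAAGT, which contains GGAA and was searched on both strands, was in 4.44% of all windows and in 8.62% of the 10328 windows of tested genes. It was in 0 of the 93 and 0 of the 46. A run of 3 GGAA units was in 0.0623% of all windows and in 0 of both sets. A match is only a description of letters in a window, and an absence says nothing of binding elsewhere.

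Members of 39 gene lists were then counted, to be read against 12.1% higher and 9.29% lower of all genes tested and a median difference of 0.02. Cholesterol synthesis, the pathway from acetyl-CoA through mevalonate and squalene to sterols, is transcribed under the SREBP factors. Of its 19 tested members 17 were lower with ETV6_WT than with ETV6_R399C and 0 higher (median -0.36). HMGCS1, an early enzyme of the pathway, stood at 250.3, 225 and 237 CPM with ETV6_WT, 377, 372 and 353 with ETV6_R399C and 254, 261 and 271 with tagBFP, so that every R399C library lay above and every wild-type library below tagBFP (log2 -0.63 ± 0.04 SE between the forms, edgeR adjusted p = 1.6e-06). LSS, which closes the sterol ring, stood at 149.7, 134 and 146 CPM with wild-type ETV6, 219, 219.8 and 213 with R399C and 194, 195 and 186 with tagBFP and formed 3 separate steps (log2 -0.60 ± 0.04 SE). DHCR7, the last enzyme of cholesterol synthesis, had the largest difference in the list (log2 -0.68), with 69.8, 62.7 and 71.2 CPM with ETV6_WT, 112, 106.4 and 106.1 with ETV6_R399C and 103.9, 101.1 and 96.8 with tagBFP.

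The squalene-forming FDFT1 differed by -0.43, the squalene epoxidase SQLE by -0.46 and the demethylase CYP51A1 by -0.51 on the log2 scale. SC5D (-0.19) and PMVK (-0.07) did not pass. Against tagBFP, 13 of the 19 were lower and 0 higher with ETV6_WT, and 11 were higher and 0 lower with ETV6_R399C. The separation between the forms thus held parts on both sides of the tagBFP level, which both counts share. The count between the forms was 16 to 18 in every alternative run.

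Of 15 genes of SREBP regulation and cholesterol handling, 8 were lower with ETV6_WT and 0 higher (median -0.21). INSIG1, which retains SREBP in the endoplasmic reticulum and is itself an SREBP target, stood at 383, 338 and 361 CPM with ETV6_WT and 555, 552 and 512 with ETV6_R399C, without overlap (log2 -0.58 ± 0.05 SE, edgeR adjusted p = 1.3e-05). SREBF2, which encodes the sterol-regulating SREBP, differed by -0.28, and the lysosomal transporter gene NPC1 by -0.35. The exporter gene ABCA1 was also lower (-0.48), while ABCG1 (0.11) and SCAP (0.05) did not pass. Against tagBFP 8 of the 15 were higher and 1 lower with ETV6_R399C (median 0.12), and 0 were higher and 0 lower with ETV6_WT (median -0.06). Of 12 fatty acid synthesis genes, 6 were lower and 1 higher. FASN, the fatty acid synthase gene, stood at 629.8, 615 and 652 CPM with ETV6_WT, 831, 809 and 829 with ETV6_R399C and 880.0, 875 and 761 with tagBFP, where R399C overlapped tagBFP (log2 -0.38 ± 0.05 SE between the forms). The desaturase genes FADS1 and FADS2, which overlap each other, differed by -0.48 and -0.50, and SCD, far below its tagBFP level with both forms, was the 1 higher with ETV6_WT (8.83 ± 0.559 against 6.36 ± 0.534 CPM, SD, n = 3).

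ATF4 is the transcription factor of the integrated stress response, which induces amino acid transport and synthesis genes. Of 19 tested members of the ATF4 list, 17 were lower with ETV6_WT and 0 higher (median -0.57), and the count was 17 in every alternative run. TRIB3, a pseudokinase that feeds back on this response, stood at 49.2, 41.4 and 45.6 CPM with ETV6_WT, 139, 134 and 87.4 with ETV6_R399C and 63.6, 60.3 and 52.8 with tagBFP, the largest difference of the list (log2 -1.41). CHAC1, which degrades glutathione, stood at 21.2, 19.0 and 20.2 CPM with wild-type ETV6, 48.2, 48.2 and 43.3 with R399C and 32.8, 34.4 and 30.3 with tagBFP (log2 -1.21 ± 0.06 SE, edgeR adjusted p = 3.4e-07). SESN2, a sestrin gene that restrains mTORC1 on loss of leucine, stood at 41.7, 36.7 and 42.4 CPM with wild-type ETV6, 92.7, 92.4 and 75.4 with R399C and 67.6, 68.0 and 60.7 with tagBFP (log2 -1.11 ± 0.08 SE). In these 3 genes every wild-type library lay below and every R399C library above tagBFP, although TRIB3 with ETV6_WT was not called against tagBFP (edgeR adjusted p = 0.075).

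SLC7A11, the cystine transporter gene, departed from that pattern. It stood at 18.2, 17.6 and 16.8 CPM with ETV6_WT, 40.6, 40.5 and 38.3 with ETV6_R399C and 36.9, 37.6 and 36.0 with tagBFP, low with the wild-type form while R399C was not called against tagBFP (log2 -1.18 ± 0.05 SE between the forms). PSAT1 and ASNS, of serine and asparagine synthesis, differed by -0.67 and -0.66, and the stress transcription factor genes DDIT3 and ATF5 by -0.85 and -0.71. ATF4 itself differed by -0.17, with 632 ± 25.2 and 709 ± 14.2 CPM (SD, n = 3). Against tagBFP 14 of the 19 were lower and 0 higher with ETV6_WT, and 11 higher and 0 lower with ETV6_R399C. In the unfolded protein response list, a neighbouring stress pathway of the endoplasmic reticulum, 6 of 17 were lower and 2 higher. The co-chaperone gene DNAJB9 (-0.61) and HERPUD1 (-0.53), of protein disposal from the reticulum, were lower and CALR (0.24) higher, and HSPA5 (-0.08) and XBP1 (0.06) did not pass. With the transcript length offset 3 were lower and 2 higher.

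**Figure D3:**
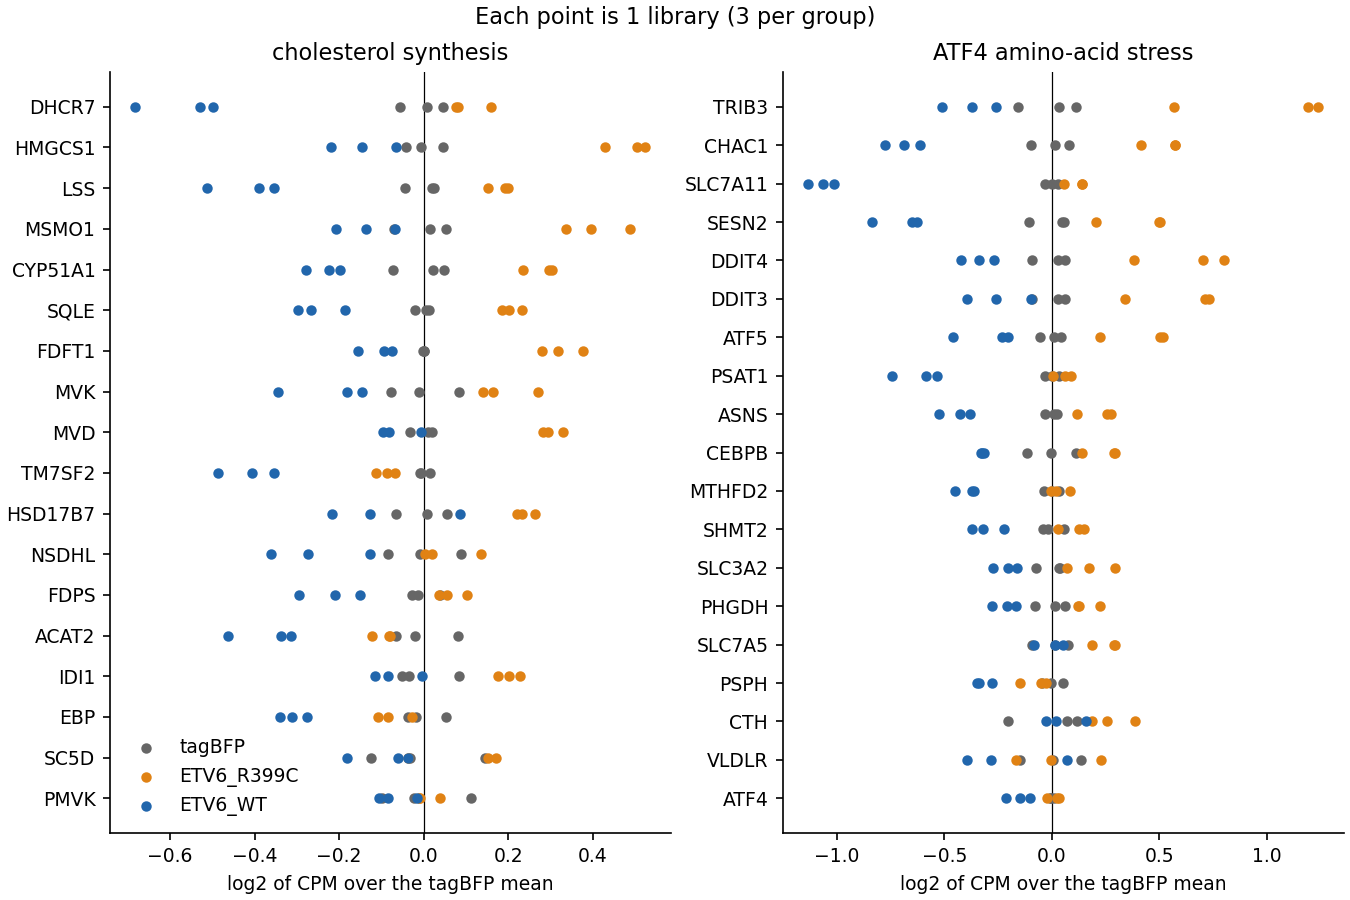
Each point is 1 library, placed by the log2 of its CPM over the tagBFP mean, for 18 of the 19 tested members of the cholesterol synthesis list and the 19 of the ATF4 list. ETV6_WT libraries lie mostly left of zero and ETV6_R399C libraries mostly right of it, and every cholesterol synthesis gene shown but SC5D and PMVK was called lower with ETV6_WT than with ETV6_R399C.

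ERK feedback genes are induced by the MAP kinase ERK and dampen it. Of 12 tested, 6 were lower with ETV6_WT and 1 higher (median -0.36). Beside ETV4 and ETV5, the ERK phosphatase gene DUSP6 stood at 133, 133 and 134 CPM with ETV6_WT, 216, 219.7 and 225 with ETV6_R399C and 192, 196 and 196 with tagBFP, in 3 separate steps (log2 -0.73 ± 0.03 SE, edgeR adjusted p = 1.0e-08). SPRED2, an inhibitor of RAF activation, stood at 6.58, 7.71 and 8.0 CPM with wild-type ETV6, 14.4, 14.8 and 14.8 with R399C and 17.4, 16.8 and 16.9 with tagBFP (log2 -0.98 ± 0.07 SE). SPRY2 (-0.41) and DUSP4 (-1.23) were lower too, PHLDA1 (0.44) was higher, and SPRY1 (0.06) did not pass. PHLDA1 lost its call without ETV6_R399C replicate 3, ETV6_WT replicate 2 or ETV6_WT replicate 3.

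Immediate-early genes are transcribed within minutes of a stimulus. Of 16, 6 were lower with ETV6_WT and 1 higher (median -0.18), or 7 and 2 at most when single libraries were left out, and 3 and 1 with the transcript length offset. FOS stood at 1.93, 0.848 and 1.34 CPM with ETV6_WT, 3.17, 2.89 and 2.77 with ETV6_R399C and 2.12, 1.90 and 1.81 with tagBFP (log2 -1.11). ATF3 (-0.67), NR4A1 (-0.66), KLF2 (-0.58) and KLF6 (-0.28) were lower as well, FOSL2 (0.43) was higher, and MYC (0.00), JUNB (0.08) and EGR1 (0.48) did not pass. Among the calls lost with the transcript length offset were those of ATF3 and KLF6 (edgeR adjusted p = 0.0997 and 0.182).

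In a list of 22 tested genes that mark ETV6::RUNX1 leukaemia, 12 were lower with ETV6_WT and 2 higher (median -0.22). CLIC5, DSC3, BIRC7 and KCNN1 led the list. PIK3C3, the class III phosphatidylinositol 3-kinase gene, stood at 101.6, 98.8 and 97.5 CPM with ETV6_WT, 156, 159 and 161 with ETV6_R399C and 179, 180.4 and 187 with tagBFP, in 3 steps (log2 -0.68 ± 0.03 SE, edgeR adjusted p = 5.9e-08). EPOR, the erythropoietin receptor gene, stood at 14.4, 13.6 and 14.5 CPM with wild-type ETV6, 20.9, 20.8 and 20.8 with R399C and 23.5, 25.6 and 24.7 with tagBFP (log2 -0.56). PCLO (0.43) and TUSC3 (0.22) were the 2 higher, of which 1 was left with DESeq2, with the transcript length offset, or without ETV6_R399C replicate 1, tagBFP replicate 1 or any 1 of the ETV6_WT libraries, and IGF2BP1 (-0.04) and TCFL5 (0.05) did not pass. RUNX1, the fusion partner, stood at 273, 277 and 294 CPM with ETV6_WT and 339.7, 335 and 329 with ETV6_R399C (log2 -0.25 ± 0.05 SE, edgeR adjusted p = 0.0026), a call lost with the transcript length offset (0.12). Reads of the fusion would be counted there as well.

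B-lineage transcription factor genes were mostly lower with the wild-type form, 11 of 20 against 3 higher (median -0.17), though 4 were lower and 1 higher with the transcript length offset. BCL6, a germinal-centre repressor gene, stood at 103.8, 103.8 and 106.5 CPM with ETV6_WT, 154, 149.8 and 150.5 with ETV6_R399C and 140.4, 138 and 138 with tagBFP, with R399C above and the wild-type form below tagBFP (log2 -0.53 ± 0.03 SE). FOXO1, which drives RAG expression, stood at 163, 176 and 168 CPM with wild-type ETV6, 222, 235 and 220.2 with R399C and 134, 129 and 125 with tagBFP, above tagBFP with both forms and further with R399C (log2 -0.42 ± 0.04 SE). BACH2 (-0.35), SOX4 (-0.24) and IKZF1 (-0.19) were lower, and POU2F2 (0.53), TCF4 (0.26) and ID3 (0.32) higher. PAX5 (-0.08) and EBF1 (0.06), which define the lineage, did not pass. Against tagBFP 16 were higher and 1 lower with ETV6_WT, and 19 higher and 0 lower with ETV6_R399C.

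Surface antigens of B-cell leukaemia went more often the other way, with 8 of 17 higher and 3 lower with ETV6_WT (median 0.11). CD99 stood at 95.01, 99.1 and 100.9 CPM with ETV6_WT, 63.8, 66.5 and 68.2 with ETV6_R399C and 62.0, 63.0 and 65.5 with tagBFP (log2 0.57 ± 0.04 SE, edgeR adjusted p = 1.6e-06). CD58, which encodes the ligand of CD2 on T cells, stood at 44.0, 44.0 and 45.1 CPM with wild-type ETV6, 32.2, 31.4 and 31.2 with R399C and 24.3, 28.2 and 27.0 with tagBFP (log2 0.49 ± 0.05 SE). MS4A1, which encodes CD20, was near the limit of the table at 0.94, 0.887 and 1.30 CPM with wild-type ETV6, 0.309, 0.289 and 0.346 with R399C and 0.095, 0.107 and 0.169 with tagBFP. The tetraspanin gene CD9 (-0.51) and the NAD-consuming ectoenzyme gene CD38 (-0.30) were lower with ETV6_WT, and MME, which encodes CD10 (0.17), was higher. With the transcript length offset 6 were higher and 1 lower. In the V(D)J list 4 of 12 were higher and 1 lower. DNTT, which adds bases at the joins, stood at 1642, 1606 and 1586 CPM with ETV6_WT, 1347, 1330 and 1335 with ETV6_R399C and 1262, 1272 and 1331 with tagBFP (log2 0.27 ± 0.03 SE).

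Interferon-stimulated genes were higher with ETV6_WT in 12 of 26 and lower in 1 (median 0.14), but 5 and 1 with the transcript length offset. IFI6 (0.51), IFITM3 (0.45), IFIT1 (0.40) and IFIT2 (0.40) were higher, and MX2, which encodes an antiviral GTPase, was the 1 lower (-0.44). STAT2 (0.04) and IRF9 (0.08), which carry the interferon signal, did not pass. Among p53 targets 6 of 20 were lower and 1 higher, and in the BCL2 family 4 of 13 were lower and 1 higher. The 3 largest differences in the BCL2 family were in pro-apoptotic genes: HRK stood at 12.6, 10.7 and 12.1 CPM with ETV6_WT, 24.7, 23.7 and 17.9 with ETV6_R399C and 7.25, 6.91 and 6.75 with tagBFP (log2 -0.91 ± 0.11 SE), BBC3 differed by -0.61 and BID by -0.49. The 1 higher member of either list was not called with DESeq2, upper-quartile scaling or the transcript length offset, which left 3 p53 targets lower.

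Genes of the Rap1 pathway, a GTPase switch of integrin adhesion, moved in both directions, 4 of 18 higher and 5 lower (median -0.07). The exchange factor genes RAPGEF3 (1.56) and RASGRP2 (0.31) and the effector gene RASSF5 (0.71) were higher. The GTPase-activating genes RAP1GAP (-1.61), SIPA1 (-0.28), SIPA1L1 (-0.27) and SIPA1L3 (-0.34) were lower, while RAP1GAP2, of the same function, was higher (0.28). RAP1A (-0.10) and RAP1B (-0.01) did not pass. With the transcript length offset 4 were higher and 2 lower. Among integrins and homing receptors, 5 of 18 were lower and 3 higher, or 2 and 2 with the transcript length offset. ITGB2 and its partner ITGAM (-0.52) were lower, and ITGA6, a laminin receptor subunit gene, stood at 26.1, 26.3 and 26.3 CPM with ETV6_WT, 15.2, 13.6 and 13.6 with ETV6_R399C and 15.1, 16.4 and 14.2 with tagBFP (log2 0.89 ± 0.06 SE, edgeR adjusted p = 3.4e-06).

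In the phagocyte oxidase list 4 of 10 were lower and 2 higher. Beside CYBB, MPO (-0.40), RAC2 (-0.28) and NCF4 (-0.26) were lower, CYBA (0.18), the partner subunit of CYBB, was higher, and NCF1 (-0.19) did not pass. With the transcript length offset 3 were lower and 0 higher, and MPO lost its call (log2 -0.45, edgeR adjusted p = 0.115). MPO, a myeloid granule gene, made up most of the myeloid marker sum, at 56.1 ± 1.13 CPM with ETV6_WT and 74.1 ± 2.14 with ETV6_R399C (SD, n = 3). In the JAK-STAT feedback list, 4 of 15 were higher and 3 lower. With DESeq2 or the transcript length offset 2 were higher. SOCS2 led the higher members, and the kinase gene PIM1, at 56.0, 56.0 and 55.3 CPM with ETV6_WT, 101.8, 104.9 and 101.3 with ETV6_R399C and 78.4, 77.4 and 77.3 with tagBFP, the lower (log2 -0.88 ± 0.03 SE). In the ETS family 6 of 22 were higher and 6 lower (median -0.02). ELK3 (0.37) and ETS2 (0.28) were higher, ETS1 (-0.25) and ELF1 (-0.18) lower, and the higher count of 6 was 3 without ETV6_R399C replicate 1, ETV6_WT replicate 1 or ETV6_WT replicate 2. With the transcript length offset 4 were higher and 3 lower.

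**Figure D4:**
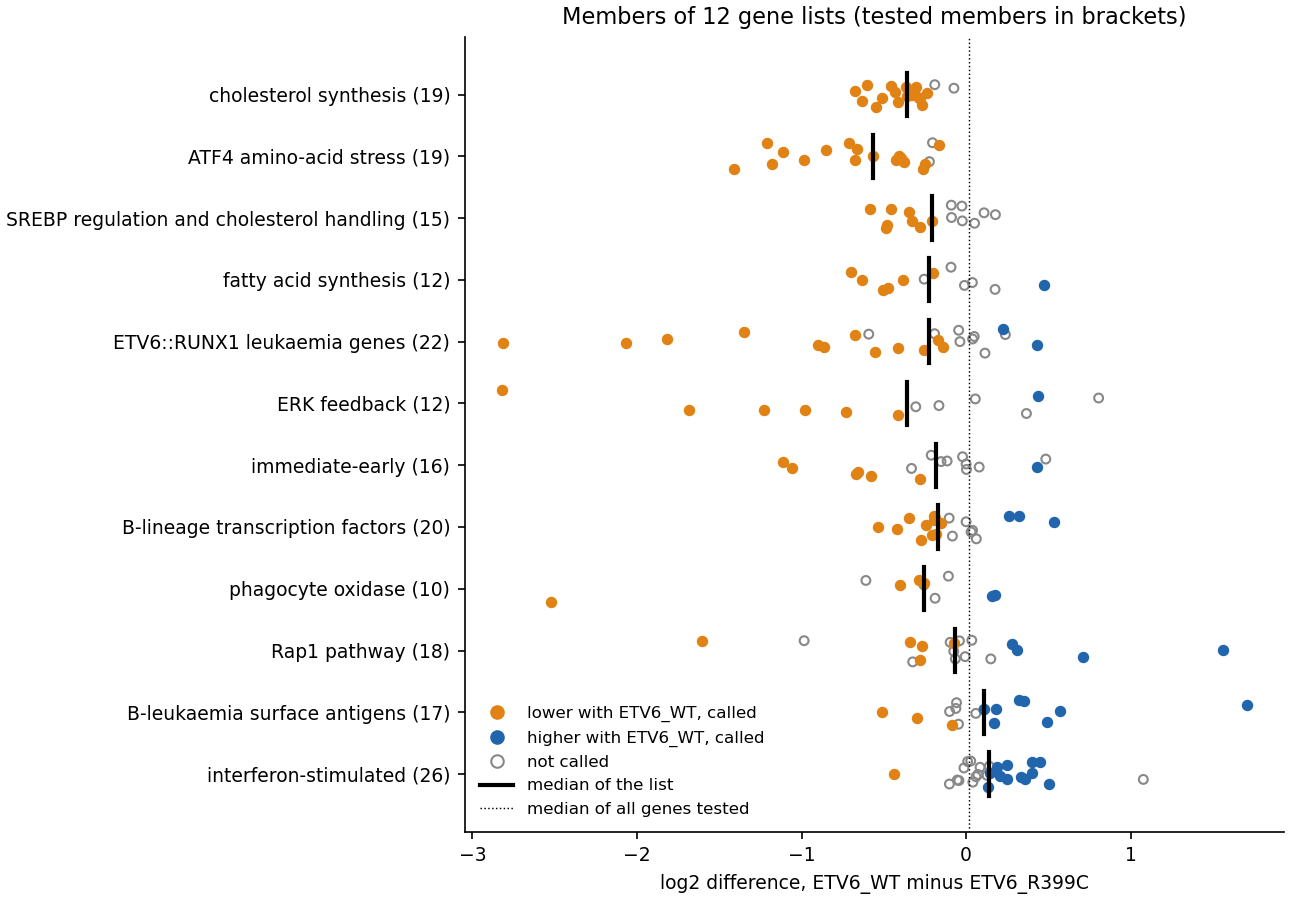
Fitted log2 difference, ETV6_WT minus ETV6_R399C, of each tested member of 12 lists (points), with the median of the list (bar) and of all genes tested (dotted line, 0.02). Filled points were called, blue higher and orange lower with ETV6_WT, and the cholesterol synthesis and ATF4 lists hold called members on the lower side alone.

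The ERG experiment shares no library with the comparison of both ETV6 forms, and offers the level of the same genes after repression of another ETS factor, an activator that binds the same core. Its groups were induced for 72 h, not 48 h, and were sorted. ERG stood at 529, 527 and 517 CPM with sgCtrl and 104.2, 109.6 and 101.5 with sgERG (log2 -2.32, edgeR adjusted p = 9.2e-10), lower in every sgERG library. Of 12825 genes tested in both fits, 1020 (7.95%) were lower and 898 (7.0%) higher with sgERG than with sgCtrl, and of all 13464 genes tested there 7.74% were lower and 6.89% higher (14.6% called). Of the 135 genes at least 2-fold lower with ETV6_WT, 123 were tested there, and 49 of them (39.8%) were lower and 27 (22%) higher with sgERG. Of the 68 at least 2-fold higher with ETV6_WT, 55 were tested, and 17 (30.9%) were lower and 6 (10.9%) higher. Among all called genes of any size the shares were 20.6% lower and 14.8% higher of 1298 genes lower with ETV6_WT, and 12.5% and 8.87% of 1702 genes higher with it.

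The classes differed in their counts, a difference that was not tested. Where both forms lay below tagBFP, 13 of 19 tested genes were lower and 1 higher with sgERG (median -1.57). Where the wild-type form alone lay below, 27 of 59 were lower and 10 higher (median -0.37). Where the wild-type form lay below and R399C above, 6 of 19 were lower and 8 higher (median 0.05), and where R399C alone lay above, 1 of 13 was lower and 7 were higher (median 0.38). Of the 15 genes named for the largest fold lower with ETV6_WT, 9 were lower and 2 higher with sgERG, and of the 14 tested among the 15 named for the largest fold higher, 3 were lower and 0 higher.

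KCNN1 stood at 171, 177 and 164 CPM with sgCtrl and 42.4, 41.7 and 48.6 with sgERG (log2 -1.95, edgeR adjusted p = 3.1e-08). SLC51A stood at 25.8, 27.2 and 28.5 CPM with sgCtrl and 6.11, 6.22 and 6.40 with sgERG (log2 -2.12), and LMTK3 at 137, 140.3 and 132 with sgCtrl and 56.2, 53.6 and 64.8 with sgERG (log2 -1.23). These genes were thus lower both with the wild-type form and with less ERG. CYBB went the other way, with 1.16, 1.06 and 1.34 CPM with sgCtrl and 4.27, 4.19 and 3.87 with sgERG (log2 1.78, edgeR adjusted p = 4.4e-05). CD33 (0.98) and ITGB2 (0.71) were also higher with sgERG. The control groups of both experiments were not at the same level in these genes. Mean CYBB was 16.9 CPM with tagBFP and 1.19 with sgCtrl, and mean ITGB2 17.6 and 37.3. KCNN1 (148 and 170) and CLIC5 (42.7 and 52.1) differed less. A direction with sgERG is thus read from another starting level, and CYBB with sgERG remained far below its tagBFP level. CLIC5 was not called there, at 51.5, 52.4 and 52.5 CPM with sgCtrl and 54.9, 55.2 and 57.6 with sgERG (log2 0.10, edgeR adjusted p = 0.16).

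Among genes higher with ETV6_WT, RASSF5 stood at 372, 377 and 367 CPM with sgCtrl and 156, 156 and 159 with sgERG (log2 -1.24, edgeR adjusted p = 1.6e-08), and TBX21 (-1.02), INHBB (-1.21), FCGRT (-0.95) and CAV1 (-1.001) were lower with sgERG as well. SOCS2 (0.15), FSCN1 (-0.19) and CCND2 (-0.09) were not called. Of the cholesterol synthesis list 1 member was higher and 1 lower with sgERG, and of the ATF4 list 8 were higher and 2 lower. ERG itself stood at 335, 329.7 and 321 CPM with ETV6_WT and 299, 301 and 306 with ETV6_R399C (log2 0.12 ± 0.03 SE, edgeR adjusted p = 0.0068), a call lost without ETV6_R399C replicate 1, ETV6_WT replicate 1 or ETV6_WT replicate 2. The count of genes called with sgERG fell from 1969 to 1160 without sgCtrl replicate 1 and to 1162 without sgCtrl replicate 3.

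**Figure D5:**
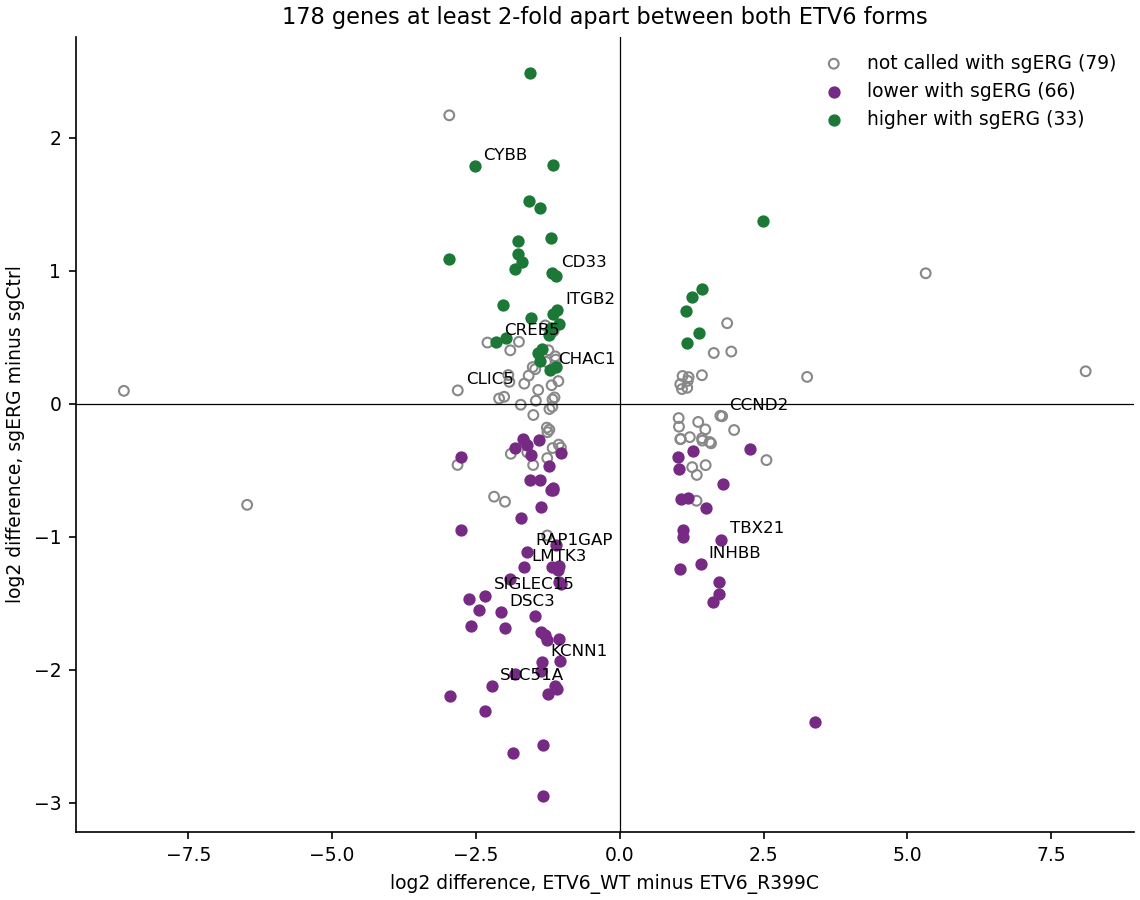
Each point is 1 of the 178 genes at least 2-fold apart between both ETV6 forms that were tested in the ERG experiment, with the log2 difference ETV6_WT minus ETV6_R399C across and sgERG minus sgCtrl upward. Of these, 66 were lower with sgERG (purple), 33 higher (green) and 79 not called (open), and both called colours occur on each side of zero.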

How the data were processed

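RNA of Reh cells was sequenced in 15 libraries. The deposited tables, 1 per library, give for each transcript an estimated count of reads, TPM and an effective length, per the file headers. Per the submitters' processing notes, the tool was Salmon 0.11.3 and the build hg38. Strand setting, bias options, read filters and annotation release: not given in the sources used here. Deposited TPM values were not tested, and the deposited effective lengths served the length offset.

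Of 167268 transcripts 90.3% were found in GENCODE 29 by identifier, and the rest, with 6.67% to 7.56% of reads, were left out. Estimated counts were summed to 33367 genes and rounded. Salmon divides reads that match several transcripts, so genes with overlapping exons are uncertain. Of the named genes 20 had such an overlap, and not all are marked where they appear. Among those unmarked are BCL6, which overlaps AC072022.1, and FDFT1, which overlaps AC069185.1, each on the other strand. No 2 replicates agreed within sampling noise (chi-square per degree of freedom of at least 2.79). One fit held the 9 ETV6_WT, ETV6_R399C and tagBFP libraries and another the 6 sgERG and sgCtrl libraries, in edgeR 4.0.16 (quasi-likelihood, TMM, default filter, R 4.3.3) with a threshold of 0.05. The SE restates the test, as the difference over the root of its F statistic. The biological coefficient of variation was 4.95% and 6.24%. Overlaps came from bedtools 2.31.1.

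Named are ETV6, ERG and RUNX1, the 15 protein-coding genes with the largest fold in each direction (called, at least 5 CPM in the higher group, no overlap of libraries) and up to 4 called members of each of 39 lists with the smallest p, 144 in all. Other list members are named beside their counts. The comparison and the lists were chosen with earlier results of these data known. Some genes that enter the counts are not reported here by name.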

Additional observations from a re-analysis of the deposited data

Results flagged for a closer look

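Of the named genes at least 2-fold apart between the forms, 9 were called against tagBFP in opposite directions with ETV6_WT and ETV6_R399C. In these 9 every ETV6_WT library and every ETV6_R399C library lay on opposite sides of the tagBFP libraries. All 9 were chosen as called in the direct edgeR test between the forms, so passing that test adds no support. Below tagBFP with ETV6_WT and above it with ETV6_R399C were AK7 (log2 difference between the forms -1.72), CHAC1 (-1.21), DLL4 (-1.62), ITGB2 (-1.09), LMTK3 (-1.67), SESN2 (-1.11) and ST6GALNAC3 (-2.01). Above tagBFP with ETV6_WT and below it with ETV6_R399C were FCGRT (1.10) and FSCN1 (1.49). The same held for 16 named genes less than 2-fold apart, among them PIM1 (-0.88) and DUSP6 (-0.73). Both differences from tagBFP use the same 3 tagBFP libraries, and what their spread adds to these genes was not tested. Named genes were chosen among called genes, and the share with this pattern among all genes tested was not counted. Of all genes at least 2-fold apart, 19 of the 135 lower and 6 of the 68 higher with ETV6_WT were called in opposite directions against tagBFP.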

How the results depend on the processing

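Of 144 named genes 37 lost the call in at least 1 alternative. The transcript length offset changed most, with 32 calls lost, among them ERN1 (0.09 on the log2 scale, opposite to its value of -0.34 as reported), PDGFRB (0.11 against -0.18) and PPP1R12B (-0.46 against 1.22). It left 1236 genes called, 639 higher and 597 lower. The cause was not tested.

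Leaving out single libraries gave 2008 to 3236 genes called between the forms, 863 to 1859 higher and 971 to 1667 lower, and at 2-fold or more 62 to 81 higher and 122 to 149 lower. Without ETV6_R399C replicate 1 there were 2008 calls and without ETV6_WT replicate 2 there were 2009. The higher count alone fell to 1060 without ETV6_R399C replicate 2, 901 without ETV6_WT replicate 1 and 1139 without ETV6_WT replicate 3. For sgERG the ranges were 1160 to 2302 called, 504 to 1054 higher, 656 to 1248 lower, and 100 to 137 higher and 125 to 155 lower at 2-fold or more.

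With DESeq2 1.42.0 the class of genes lower with ETV6_WT and above tagBFP with both forms held 1, and among genes higher with ETV6_WT both forms were above tagBFP in 10 and neither called in 1. The leading start region of SOCS2 differed by 15.2 RPM with starts joined within 500 bases, against 6.32. Deviations of same-numbered libraries from their group means correlated by -0.08 to 0.10, and the replicate numbers were not used as pairs in the main fits. Whether same-numbered libraries were handled together is not stated in the labels. With the replicate block 2973 genes were called (2785 of them also without it), both forms were below tagBFP in 2 of the genes higher with ETV6_WT, and no named gene's call changed. With upper-quartile scaling, DESeq2, only the 6 libraries or no low-count filter 1 to 2 named calls were lost each, and without single libraries 0 to 10. Matching transcripts by identifier with version was not run, since the tables' identifiers carry no version. Depth limits genes near 1 CPM, such as MS4A1, FOS and CD33.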

Other observations

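MYC and ribosome biogenesis genes were higher with ETV6_WT than with ETV6_R399C in 11 of 23 and lower in 0 (median 0.10). Among them were the spermidine synthase gene SRM (0.26) and the nucleolar gene NOP16 (0.44), while MYC itself differed by 0.00. The count was 2 to 12 when single libraries were left out, with 2 without ETV6_WT replicate 1 or 2, 3 without ETV6_R399C replicate 1, 4 without ETV6_R399C replicate 2, 6 without tagBFP replicate 1 or 2 and 7 without ETV6_WT replicate 3. Against tagBFP 20 of the 23 were lower and 0 higher with each form (medians -0.30 with ETV6_WT and -0.41 with ETV6_R399C). In the replication and mitosis list 9 of 22 were higher and 0 lower with ETV6_WT than with ETV6_R399C (median 0.10), or 5 without ETV6_WT replicate 1 or 2. MCM4 (0.21) and PCNA (0.19) were the largest. Against tagBFP 4 of the 22 were higher and 2 lower with ETV6_WT, and 1 was higher and 12 lower with ETV6_R399C.

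Of 22 genes of glycolysis and hypoxia 8 were higher and 2 lower with ETV6_WT than with ETV6_R399C. The higher count was 3 to 11 when single libraries were left out and 2 with the transcript length offset. Against tagBFP 4 of the 22 were higher and 13 lower with ETV6_WT (median -0.22), and 1 was higher and 13 lower with ETV6_R399C (median -0.32). Between the forms GAPDH was higher (0.18) and VEGFA, the endothelial growth factor gene, lower (-0.63) with ETV6_WT. Of 19 tetraspanin genes, 7 were higher and 2 lower with ETV6_WT than with ETV6_R399C. CD82 stood at 166, 168 and 173 CPM with ETV6_WT, 107.3, 103.1 and 109 with ETV6_R399C and 26.3, 26.0 and 29.9 with tagBFP. It was thus well above tagBFP with both forms (log2 2.63 with ETV6_WT and 1.97 with ETV6_R399C). TSPAN9, at 26.8, 25.1 and 27.5 CPM with ETV6_WT and 44.8, 45.6 and 45.8 with ETV6_R399C, was lower with ETV6_WT. With tagBFP TSPAN9 stood at 57.1, 55.0 and 53.9 CPM, above both forms. The higher count was 2 to 8 when single libraries were left out.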
